A study of Mus with 9 samples.

Results

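The genes described here are 10 genes that mark the endothelium, the cell layer that lines blood vessels: Pecam1, Cdh5, Kdr, Flt1, Tek, Emcn, Ehd3, Plvap, Nos3 and Vwf. They are a list of names, with no threshold on a measured value, written with earlier results of these data known, and each was found by its symbol among the 54532 genes of the table. RNA sequencing was performed on whole kidneys of 9 male C57BL/6 mice, with 1 library per mouse and 3 mice in each of 3 groups. All mice had 1 kidney removed at 18 months of age, so no group had both kidneys. The 18 mo group was killed 1 week after the surgery. The 21 mo group received saline for 12 weeks, starting 1 week after the surgery, and the 21 mo/O304 group received O304 at 10 mg/kg/day over the same 12 weeks, both by intraperitoneal injection. O304 is a small molecule that activates AMPK, a kinase that senses low cellular energy. The 18 mo mice differ from the others in age, in time since surgery and in having had no injections, and these cannot be told apart. In RNA of a whole kidney, fewer endothelial cells and less RNA per endothelial cell cannot be told apart either.

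The kidney holds several kinds of endothelium. Glomerular capillaries are fenestrated and filter the blood, peritubular capillaries take up what the tubules reabsorb, and arterioles and veins are lined by endothelium with fewer pores. VEGF-A, made largely by podocytes and tubular cells, signals through the receptor encoded by Kdr and keeps capillaries alive and fenestrated, while the receptor encoded by Flt1 binds VEGF-A and limits it. Angiopoietin 1, made by cells around the vessel, activates the receptor encoded by Tek, and angiopoietin 2 mostly opposes it. Loss of small vessels is a known feature of the ageing and scarring kidney.

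The libraries held 15636378 to 18396725 counts on genes. The 21 mo libraries differed from each other the most: their coefficient of biological variation was 44.0%, against 18.0% among the 18 mo and 20.6% among the 21 mo/O304 libraries. The 10 proximal tubule markers summed to 13287 to 16635 CPM (a count divided by library size, scaled between libraries with TMM) in the 18 mo libraries and 13092 to 14919 CPM in the 21 mo/O304 libraries. In the 21 mo libraries they summed to 13680, 6741 and 1888 CPM in replicates 1, 2 and 3. Replicates 2 and 3 of the 21 mo group therefore stood apart from all other libraries, and values that rest on single libraries are given below. All 10 endothelial genes had counts in every library and were among the 15902 genes tested.

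When the 21 mo kidneys were compared with the 18 mo kidneys, none of the 10 genes passed an adjusted p of 0.05 in edgeR's quasi-likelihood test, in which 0.0189% of all genes tested passed. The fitted level of 9 genes was lower in the 21 mo group and that of Vwf was higher. The median log2 fold change of the 10 genes was -0.27, against 0.03 over all genes tested, of which 7515 of 15902 were lower. Both values rested on single mice: without 18 mo replicate 3, 5 genes were higher and 5 lower, with a median of -0.05, and the median was -0.50 without 18 mo replicate 2, -0.41 without 21 mo replicate 1 and -0.12 without 21 mo replicate 3. Vwf was also the only 1 of the 10 with an unadjusted p under 0.05, where 26.1% of all genes had one. The 3 libraries of each group did not overlap for Vwf, which was higher in all 21 mo libraries, and no endothelial gene was lower in all of them. Over all genes, 13.5% were higher and 15.3% lower in the 21 mo group without overlap, so 1 in 10 was close to the share of the whole table.

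When the 21 mo/O304 kidneys were compared with the 21 mo kidneys, again none of the 10 passed edgeR's adjusted p, and 0% of all genes tested did, that is 0 of 15902. Here 9 genes were higher in the 21 mo/O304 group and Vwf was lower, with a median log2 fold change of 0.52 against -0.02 over all genes. The count of 9 and 1 held with each library left out, and the median was 0.29 without 21 mo/O304 replicate 2. Kdr, Emcn and Vwf had an unadjusted p under 0.05, 3 of 10 where the share over all genes was 20.7%. Vwf was the gene without overlap, lower in all 3 of the 21 mo/O304 libraries, and none was higher in all of them. The shares over all genes were 10.5% lower and 10.8% higher without overlap. The 21 mo libraries stand on the other side of both comparisons, so the opposite signs in them are not independent.

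When the 21 mo/O304 kidneys were compared with the 18 mo kidneys, none of the 10 genes came near the threshold. The log2 fold changes ran from -0.57 ± 0.42 for Vwf to 0.43 ± 0.39 for Kdr, and the smallest adjusted p in edgeR was 0.620, for Emcn. The median log2 fold change of the 10 genes was 0.27 against 0.00 over all genes, with 7 genes higher and 3 lower. The median was 0.02 without 21 mo/O304 replicate 2, 0.05 without 18 mo replicate 2, 0.41 without 21 mo/O304 replicate 1 and 0.47 without 18 mo replicate 3, and without either of the former 2 libraries 5 genes were higher and 5 lower. None of the 10 passed edgeR's adjusted p, where 0% of all genes did, and none had an unadjusted p under 0.05, where 9.66% did. For all 10 genes the libraries of both groups overlapped, while 13.2% of all genes were higher and 13.3% lower without overlap. The standard errors and p-values here rest on 1 spread per gene over all 9 libraries, the more variable 21 mo libraries included. In an edgeR fit of only the 6 libraries compared, none of the 10 passed the adjusted p either, and 0.144% of all genes did.

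Other tests and 1 library changed these counts for the comparisons with the 21 mo group. DESeq2 passed Vwf alone in both, with 12.3% of all genes against the 18 mo mice and 5.75% in the O304 comparison. limma voom with sample quality weights passed 5 of 10 genes in the former (Kdr, Flt1, Ehd3 and Plvap lower, Vwf higher) and 8 of 10 in the latter (all but Cdh5 and Nos3), where it passed 52.9% and 41.1% of all genes. In that fit the weight of 21 mo replicate 2 was 9.11, while replicates 1 and 3 had 0.22 and 0.13, so 1 mouse carried most of the 21 mo mean. Without 21 mo replicate 1, edgeR passed Kdr and Vwf in the former comparison and Kdr, Flt1 and Vwf in the latter. The shares of all genes rose with it, to 25.4% and 23.1%. limma-trend on FPKM passed none in any comparison, and for 21 mo/O304 and 18 mo none of these fits passed any of the 10.

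**Figure D1:**
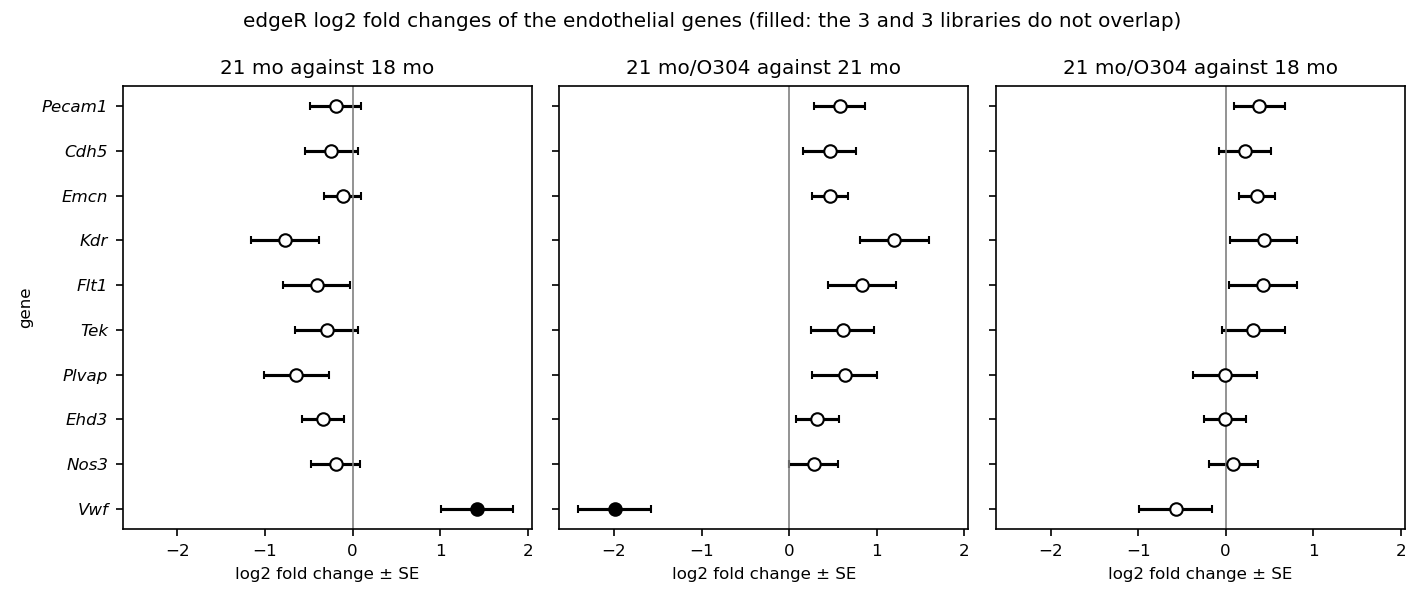
edgeR log2 fold changes with their standard errors for the 10 endothelial genes (rows) in the 3 comparisons (panels), filled where the libraries of both groups do not overlap. In the left and middle panels Vwf lies on the side opposite to the other 9 genes, and its points are the only filled ones.

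The level of each gene was compared with the others in FPKM, the authors' count scaled by gene length and library size. Plvap was the most abundant, with 88.2 ± 18.3 FPKM in the 18 mo group (SD, n = 3). It was followed by Emcn at 11.3 ± 1.82, Pecam1 at 9.02 ± 2.44, Kdr at 6.60 ± 1.94, Tek at 6.48 ± 1.85, Cdh5 at 5.58 ± 1.77, Ehd3 at 4.20 ± 0.94 and Flt1 at 4.07 ± 1.12 FPKM. Nos3 had 1.49 ± 0.47 and Vwf 0.295 ± 0.127 FPKM. Neighbours from Emcn to Flt1 overlapped in their libraries, whereas Plvap, Nos3 and Vwf each stood clear of their neighbours. In the 21 mo group Nos3 at 1.30 ± 0.26 and Vwf at 0.79 ± 0.31 FPKM overlapped. By its mean Kdr, at 3.86 ± 1.83 FPKM, came after Tek and Cdh5 in that group, but its libraries overlapped those of both. Plvap was first and Vwf last in all 3 groups.

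**Figure D2:**
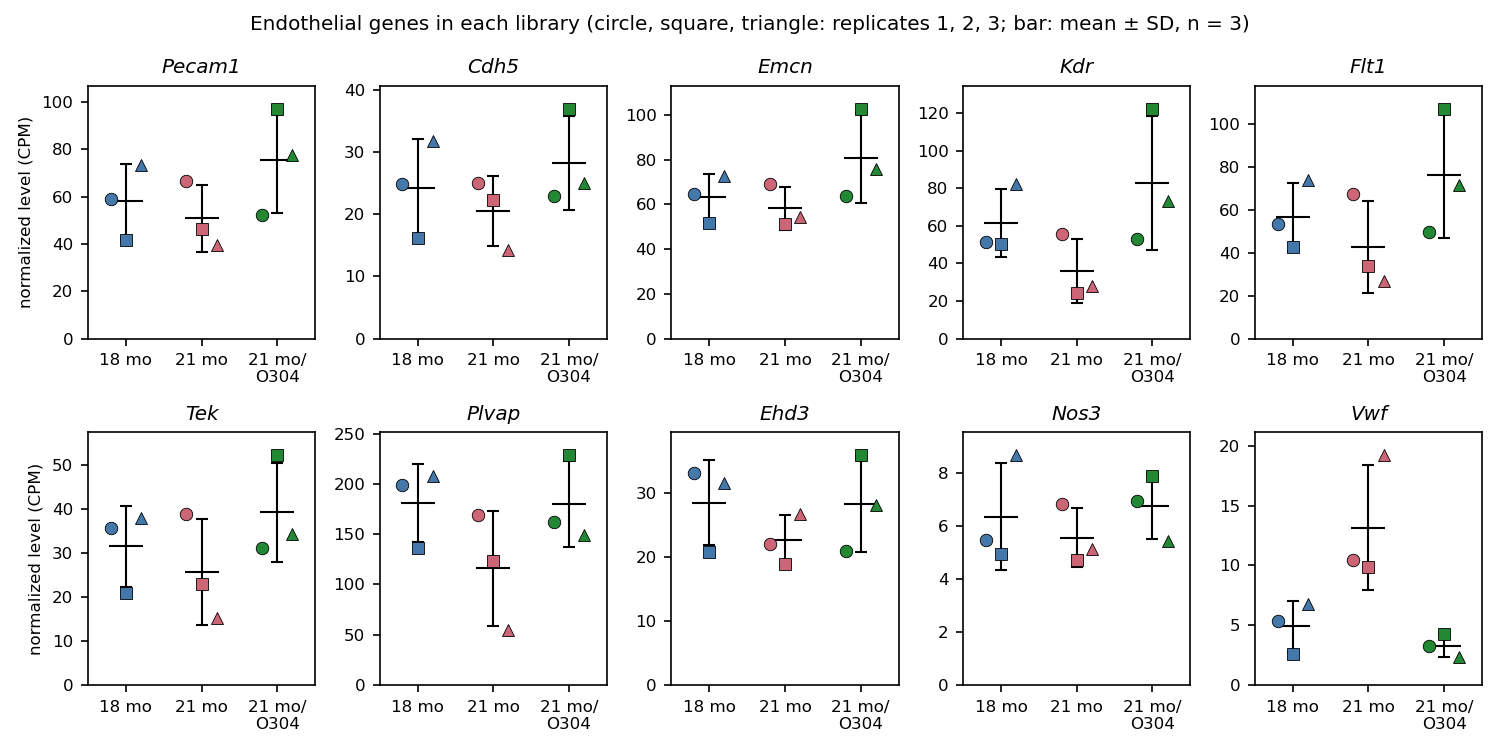
Normalized level in CPM of each endothelial gene (panels, each with its own axis from 0) in the 9 libraries, with the mean and SD of each group (n = 3). Vwf is higher in all 3 of the 21 mo libraries than in the other 6, and every other gene overlaps between the groups.

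Pecam1 encodes CD31, an adhesion molecule at endothelial junctions that platelets and leukocytes also carry (ENSMUSG00000020717, chr11:106654217-106750628, minus strand). Replicates 1, 2 and 3 had 59.0, 41.5 and 73.4 CPM among the 18 mo libraries, 66.5, 46.2 and 39.6 CPM among the 21 mo libraries and 52.2, 97.0 and 77.7 CPM among the 21 mo/O304 libraries, an order kept for all genes below. All groups overlapped. The log2 fold change was -0.19 ± 0.29 (SE) in 21 mo against 18 mo, with adjusted p = 0.693 in edgeR. In 21 mo/O304 against 21 mo it was 0.58 ± 0.29, with adjusted p = 0.281 in edgeR. Pairs of values below keep this order of the comparisons.

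Cdh5 encodes VE-cadherin, the cadherin of endothelial adherens junctions (ENSMUSG00000031871, chr8:104101625-104144511, plus strand). It had 24.8, 16.1 and 31.7 CPM in the 18 mo libraries, 25.0, 22.3 and 14.2 CPM in the 21 mo libraries and 22.9, 36.9 and 25.0 CPM in the 21 mo/O304 libraries. The lowest library was 21 mo replicate 3 and the highest 21 mo/O304 replicate 2, and the groups overlapped. Its log2 fold changes were -0.24 ± 0.30 and 0.46 ± 0.30, with adjusted p = 0.628 and 0.377 in edgeR. The annotated gene Gm29682 overlaps Cdh5, and the libraries were unstranded, so strand cannot separate the reads of these genes.

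Emcn encodes endomucin, a sialoglycoprotein of capillary and venous endothelium (ENSMUSG00000054690, chr3:137341067-137432185, plus strand). As a fold change, its 18 mo and 21 mo levels were the closest of the 10 genes, with 64.8, 51.9 and 72.7 CPM in the former and 69.3, 51.3 and 54.5 CPM in the latter. The 21 mo/O304 libraries had 63.7, 102.7 and 76.1 CPM, of which replicates 2 and 3 exceeded every library of the other groups. The log2 fold changes were -0.11 ± 0.21 and 0.47 ± 0.21. The latter had an unadjusted p of 0.0490 and an adjusted p of 0.239 in edgeR.

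Kdr encodes VEGFR2, the main signalling receptor for VEGF-A (ENSMUSG00000062960, chr5:75932827-75978458, minus strand). It had 51.5, 50.5 and 82.3 CPM in the 18 mo libraries and 55.7, 24.4 and 28.1 CPM in the 21 mo libraries. Replicates 2 and 3 of the 21 mo group were below all 18 mo libraries, and replicate 1 lay among them. The 21 mo/O304 libraries had 53.2, 122.3 and 73.2 CPM, and only their replicate 1 fell within the range of the 21 mo group. The log2 fold changes were -0.77 ± 0.39 and 1.20 ± 0.39, the largest of the 9 genes other than Vwf in both comparisons. The adjusted p was 0.242 and 0.182 in edgeR. It was 0.0398 and 0.0183 in edgeR without 21 mo replicate 1, and over the 17 alternatives tried it ranged from 0.0014 to 0.534 in the former and from 0.0019 to 0.40 in the latter.

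Flt1 encodes VEGFR1, which binds VEGF-A and also gives rise to a soluble form that traps it (ENSMUSG00000029648, chr5:147561604-147726011, minus strand). The counts are per gene and do not separate these forms. The 18 mo libraries had 53.2, 42.9 and 73.8 CPM, the 21 mo libraries 67.3, 33.6 and 27.0 CPM and the 21 mo/O304 libraries 49.5, 107.1 and 71.6 CPM. As for Kdr, replicates 2 and 3 of the 21 mo group were below all others. The log2 fold changes were -0.41 ± 0.39 and 0.84 ± 0.39, with adjusted p = 0.515 and 0.256 in edgeR. For 21 mo/O304 against 21 mo it was 0.0278 without 21 mo replicate 1, within a range of 0.0073 to 0.528 over the alternatives.

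Tek encodes TIE2, the angiopoietin receptor (ENSMUSG00000006386, chr4:94739289-94874976, plus strand). It had 35.7, 21.0 and 37.9 CPM in the 18 mo libraries, 38.9, 23.0 and 15.3 CPM in the 21 mo libraries and 31.2, 52.2 and 34.4 CPM in the 21 mo/O304 libraries. Replicate 3 of the 21 mo group was the lowest of the 9 libraries, while replicate 1 was above all 18 mo libraries. For Tek the log2 fold changes were -0.30 ± 0.36 and 0.61 ± 0.36, with adjusted p = 0.621 and 0.340 in edgeR.

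Plvap encodes the protein of the diaphragms that span the pores of peritubular capillaries and of venous endothelium, and adult glomerular capillaries largely lack it (ENSMUSG00000034845, chr8:71497765-71511752, minus strand). It had 198.7, 136.2 and 207.7 CPM in the 18 mo libraries, 169.1, 123.6 and 55.0 CPM in the 21 mo libraries and 162.2, 228.3 and 149.2 CPM in the 21 mo/O304 libraries. The 21 mo libraries were spread widely, and replicate 3 had the lowest level of all. The log2 fold changes were -0.64 ± 0.37 and 0.63 ± 0.37, with adjusted p = 0.295 and 0.336 in edgeR. Without 21 mo replicate 3 they were -0.32 and 0.31. The gene Gtpbp3 overlaps Plvap in the annotation.

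Ehd3 encodes a membrane trafficking protein that in the kidney marks glomerular endothelium (ENSMUSG00000024065, chr17:73804134-73832094, plus strand). It had 33.1, 20.8 and 31.5 CPM in the 18 mo libraries, 22.0, 18.9 and 26.8 CPM in the 21 mo libraries and 20.9, 35.8 and 28.0 CPM in the 21 mo/O304 libraries. In 21 mo replicate 3, in which Plvap was lowest, Ehd3 was the highest of its group. For Ehd3 the log2 fold changes were -0.33 ± 0.24 and 0.32 ± 0.24, with adjusted p = 0.398 and 0.440 in edgeR.

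The ratio of Ehd3 to Plvap sets a glomerular against a mainly peritubular marker within each library. On the log2 CPM scale it was -2.58, -2.70 and -2.72 in the 18 mo libraries, -2.94, -2.70 and -1.04 in the 21 mo libraries and -2.95, -2.67 and -2.41 in the 21 mo/O304 libraries. Only 21 mo replicate 3 stood apart. The mean of the 21 mo libraries was 0.44 above that of the 18 mo libraries, and the 21 mo/O304 mean differed from the 21 mo mean by -0.45, each with p = 0.8 in the exact two-sided permutation test (n = 3 and 3, smallest possible p 0.1), and without 21 mo replicate 3 these differences were -0.15 and 0.14. The 21 mo/O304 and 18 mo groups differed by -0.01, with p = 1 in the same exact test. Adjusted over the 3 comparisons, p was 1 in each. In 21 mo replicate 3 the 9 podocyte markers were also 1.17 higher than the 18 mo mean on the log2 scale, and the proximal tubule markers 2.80 lower on that scale. The part of either in this ratio was not tested.

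Nos3 encodes endothelial nitric oxide synthase, which makes the vasodilator nitric oxide (ENSMUSG00000028978, chr5:24364810-24384474, plus strand). Its levels were low and close in all groups, with 5.45, 4.93 and 8.66 CPM in the 18 mo libraries, 6.82, 4.72 and 5.13 CPM in the 21 mo libraries and 6.92, 7.87 and 5.41 CPM in the 21 mo/O304 libraries. For Nos3 the log2 fold changes were -0.19 ± 0.28 and 0.28 ± 0.28, with adjusted p = 0.683 and 0.565 in edgeR. Atg9b and Gm15587 overlap Nos3 in the annotation, and reads of overlapping genes may have been split or dropped.

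Vwf encodes von Willebrand factor, a clotting protein stored in endothelial granules, mostly of veins and larger vessels, and also in platelets (ENSMUSG00000001930, chr6:125546774-125686679, plus strand). It had 5.33, 2.59 and 6.79 CPM in the 18 mo libraries, 10.4, 9.83 and 19.2 CPM in the 21 mo libraries and 3.26, 4.29 and 2.36 CPM in the 21 mo/O304 libraries. All 21 mo libraries were above all others, including replicate 1, in which Tek was the only other of the 10 genes outside the range of the 18 mo libraries. These levels rest on 86, 42 and 120 counts, on 156, 173 and 419 counts and on 56, 72 and 37 counts. The log2 fold change was 1.42 ± 0.41 (2.68-fold) for 21 mo against 18 mo, with an unadjusted p of 0.0070 and an adjusted p of 0.0892 in edgeR. It was -1.99 ± 0.42 for 21 mo/O304 against 21 mo, with an unadjusted p of 0.0010 and an adjusted p of 0.175. The exact two-sided permutation test gave p = 0.1 in both, the smallest it allows with 3 and 3 mice. Over the 16 alternatives that included Vwf the adjusted p ranged from 0.0110 to 0.261 in the former and from 0.0008 to 0.40 in the latter, and 3 of them passed 0.05 in each.

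Vwf was also set against Pecam1 in the same library, a ratio chosen after its values were seen and given without a test. On the log2 scale it was -3.44, -3.94 and -3.41 in the 18 mo libraries, -2.66, -2.22 and -1.04 in the 21 mo libraries and -3.96, -4.46 and -4.98 in the 21 mo/O304 libraries. The ratio was higher in every 21 mo library than in the others. In 21 mo/O304 replicates 2 and 3 it was lower than in all 18 mo libraries. For 21 mo/O304 replicate 1 and 18 mo replicate 2 it was nearly equal. The former had 56 Vwf and 898 Pecam1 counts and the latter 42 and 674, so their order depends on the prior count. Of the 10 platelet and megakaryocyte markers only 5 were expressed enough to be tested and Gp1bb had no count in any library. They summed to 13.2 to 24.8 CPM among 18 mo, 9.66 to 27.9 CPM among 21 mo and 12.8 to 21.5 CPM among 21 mo/O304 libraries. Their mean level in the 21 mo libraries was 0.96, -1.0 and -0.06 on the log2 scale against the 18 mo mean, with 1, 4 and 2 of the 10 markers at 0 counts. Their part in the Vwf levels was not tested.

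The mean level of the 10 genes differed among mice of the same group. Against the 18 mo mean, their mean log2 level was 0.06, -0.43 and 0.37 in the 18 mo libraries, 0.19, -0.34 and -0.45 in the 21 mo libraries and -0.13, 0.59 and 0.03 in the 21 mo/O304 libraries. Without Vwf, which lay on the other side, the other 9 genes had means of 0.08, -0.50 and -0.73 in the 21 mo libraries. In 21 mo replicate 1 no gene was below the range of the 18 mo libraries, and Tek and Vwf were above it. In 21 mo replicates 2 and 3, 6 genes each were below that range, and Vwf was the 1 gene above it. In 21 mo/O304 replicate 2, 8 of 10 genes were above it. Replicate 1 of the same group had all 10 within the range, and replicate 3 had Pecam1 and Emcn above it and Vwf below it. The share of all genes outside that range in each library was not counted. Whether these counts are particular to the 10 genes was therefore not tested, and 21 mo replicates 2 and 3 also stood apart in their proximal tubule markers.

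**Figure D3:**
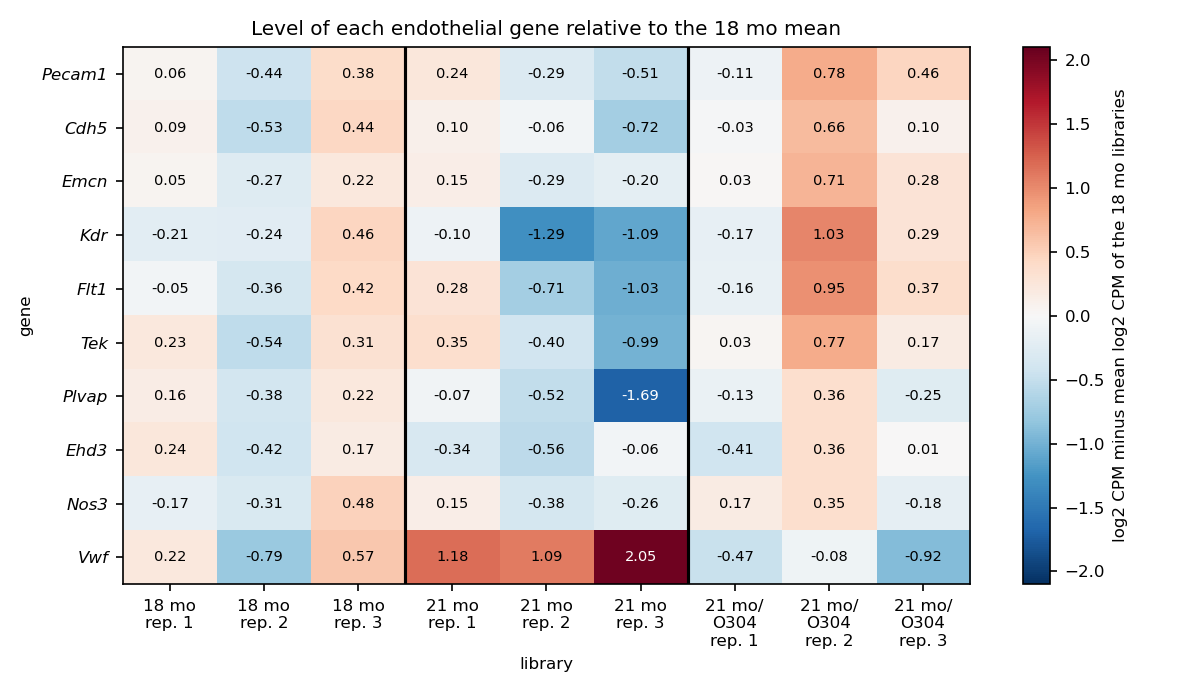
Level of each endothelial gene (rows) in each library (columns) on the log2 CPM scale, minus the mean of the 18 mo libraries. In 5 of 9 columns all genes other than Vwf lie on the same side of 0, with 21 mo/O304 replicate 2 above the 18 mo mean for 9 genes, and the Vwf row departs from them in the 21 mo libraries.

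Each gene was correlated with the mean of the other 9 over the 9 libraries, as a description without a test, since all points share library preparation and scaling. Pearson's r was 0.93 for Pecam1, 0.92 for Cdh5 and Tek, 0.91 for Emcn and Flt1, 0.81 for Nos3 and 0.79 for Kdr. Plvap, with r = 0.70, and Ehd3, with r = 0.64, followed the others less closely, and Vwf had r = -0.41. With the group means removed, r was 0.33 for Vwf. Of 13147 other protein-coding genes, those most like the mean of the 10 were Mfng (r = 0.97), a glycosyltransferase that modifies Notch receptors, Gimap6 (0.94), a GTPase-like protein of the immunity-associated family, Cd200 (0.94), a surface glycoprotein of endothelium and other cells, Mmrn2 (0.93), an endothelial matrix protein, and Cbfa2t3 (0.93), a transcriptional corepressor.

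Among the ligands, Vegfa had 170.1, 177.6 and 147.4 CPM in the 18 mo libraries, 123.0, 78.5 and 97.1 CPM in the 21 mo libraries and 144.3, 157.2 and 153.1 CPM in the 21 mo/O304 libraries. The 21 mo libraries lay below all others. Of all genes tested, 15.3% lay below the 18 mo libraries in this way and 10.8% below the 21 mo/O304 libraries. The log2 fold changes were -0.73 ± 0.17 and 0.61 ± 0.17, and the adjusted p of 0.0707 and 0.175 in edgeR passed the threshold in neither. Angpt1 had log2 fold changes of -0.09 ± 0.26 and 0.44 ± 0.26, and its 21 mo/O304 libraries, at 9.65 to 12.8 CPM, lay above the 21 mo libraries, at 7.24 to 9.55 CPM. Angpt2, whose annotation overlaps Mcph1, had 18.1, 1.79 and 2.72 CPM in the 18 mo libraries, 6.29, 13.8 and 7.05 CPM in the 21 mo libraries and 1.98, 3.93 and 1.34 CPM in the 21 mo/O304 libraries. Its 18 mo mean rests on replicate 1, and the 21 mo/O304 libraries were below the 21 mo libraries, with a log2 fold change of -1.90 ± 0.84 and an adjusted p of 0.244 in edgeR. Vegfc, a ligand of lymphatic and some blood endothelium, had log2 fold changes of 0.27 and 0.02. Of the 11 ligand genes tested, none passed the adjusted p in edgeR in either comparison. In 21 mo against 18 mo, 3 had an unadjusted p under 0.05, all lower, a share close to the 26.1% of all genes, and in 21 mo/O304 against 21 mo 3 were higher and 2 lower at that p, where 20.7% of all genes had one.

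Of 21 other endothelial receptors, 11 were lower and 10 higher in 21 mo against 18 mo, with a median of -0.10 for their log2 fold changes, and 16 were higher in 21 mo/O304 against 21 mo, with a median of 0.12. Tie1, an orphan receptor that acts with TIE2, had log2 fold changes of -0.59 ± 0.34 and 0.66 ± 0.34. Flt4, the receptor for VEGF-C, had -0.55 ± 0.36 and 0.82 ± 0.36. Nrp1, a VEGF co-receptor that other kidney cells also express, was close to 0 in both, at 0.09 ± 0.20 and 0.01 ± 0.20. None of the 21 passed the adjusted p in edgeR.

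The 21 endothelial transcription factors tested had medians of 0.21 and 0.03, and the 20 junction and surface genes 0.13 and 0.05, so neither list shared the median of the 10 genes. Erg, an ETS factor that maintains endothelial identity, had log2 fold changes of -0.34 ± 0.37 and 0.37 ± 0.37. Sox17, an arterial factor, had -0.49 ± 0.30 and 0.18 ± 0.30. Klf2, a factor induced by laminar flow, had 0.05 ± 0.30 and 0.24 ± 0.30. None of these lists had a gene past the adjusted p in edgeR in either comparison.

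Lists for the vascular beds differed in their medians. The 13 peritubular and fenestrated capillary genes had medians of -0.25 and 0.57 in the same order of comparisons, and the 10 glomerular endothelial genes tested -0.11 and 0.23. The 12 arterial genes had 0.29 and -0.25, the 7 venous genes 0.80 and -1.0, and the 6 lymphatic genes 1.12 and -0.80. Plvap belongs to the first, Ehd3 to the second and Vwf to the venous list. The 21 mo libraries differed within these lists. Against the 18 mo mean, the arterial list had mean log2 levels of -0.22, -0.04 and 0.49 in 21 mo replicates 1, 2 and 3. The venous list had 0.22, 0.60 and 0.93 and the lymphatic list 0.28, 0.66 and 1.51, each highest in replicate 3. The peritubular list had 0.009, -0.52 and -0.36 and the glomerular list 0.11, -0.52 and 0.004, each lowest in replicate 2. Several genes of these lists are made by other kidney cells, among them Fabp1 and Lpl in the glomerular list and Lyve1, which macrophages also carry, in the lymphatic list. No gene of these lists passed the adjusted p in edgeR with all libraries. The fits that passed Plvap, Ehd3 or Vwf are given above, and the other genes of these lists in those fits are not listed here.

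The activation list, which also holds Vwf, went the other way from most of the 10 genes. All 9 of its tested genes were higher in 21 mo against 18 mo, 7 of them with an unadjusted p under 0.05 (26.1% over all genes), and the median log2 fold change was 1.76. All 9 were lower in 21 mo/O304 against 21 mo, with a median of -1.99. None passed the adjusted p in either in edgeR with all libraries. Vwf did in the other fits given above, and the remaining genes of this list in those fits are not listed here. Vcam1, an adhesion molecule for leukocytes that tubular cells also make, had 16.2, 24.1 and 27.4 CPM in the 18 mo libraries, 37.5, 244.8 and 143.0 CPM in the 21 mo libraries and 18.1, 30.5 and 38.1 CPM in the 21 mo/O304 libraries. Its log2 fold change of 2.65 ± 0.59 for 21 mo against 18 mo had an adjusted p of 0.0679 in edgeR. Icam1, another such molecule, had log2 fold changes of 1.08 ± 0.33 and -1.12 ± 0.33. The list's mean level in the 21 mo libraries was 0.43, 2.02 and 2.66 on the log2 scale against the 18 mo mean, so most of it came from replicates 2 and 3, and Lcn2, its gene with the largest log2 fold change (6.10), is made mainly by injured tubules.

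**Figure D4:**
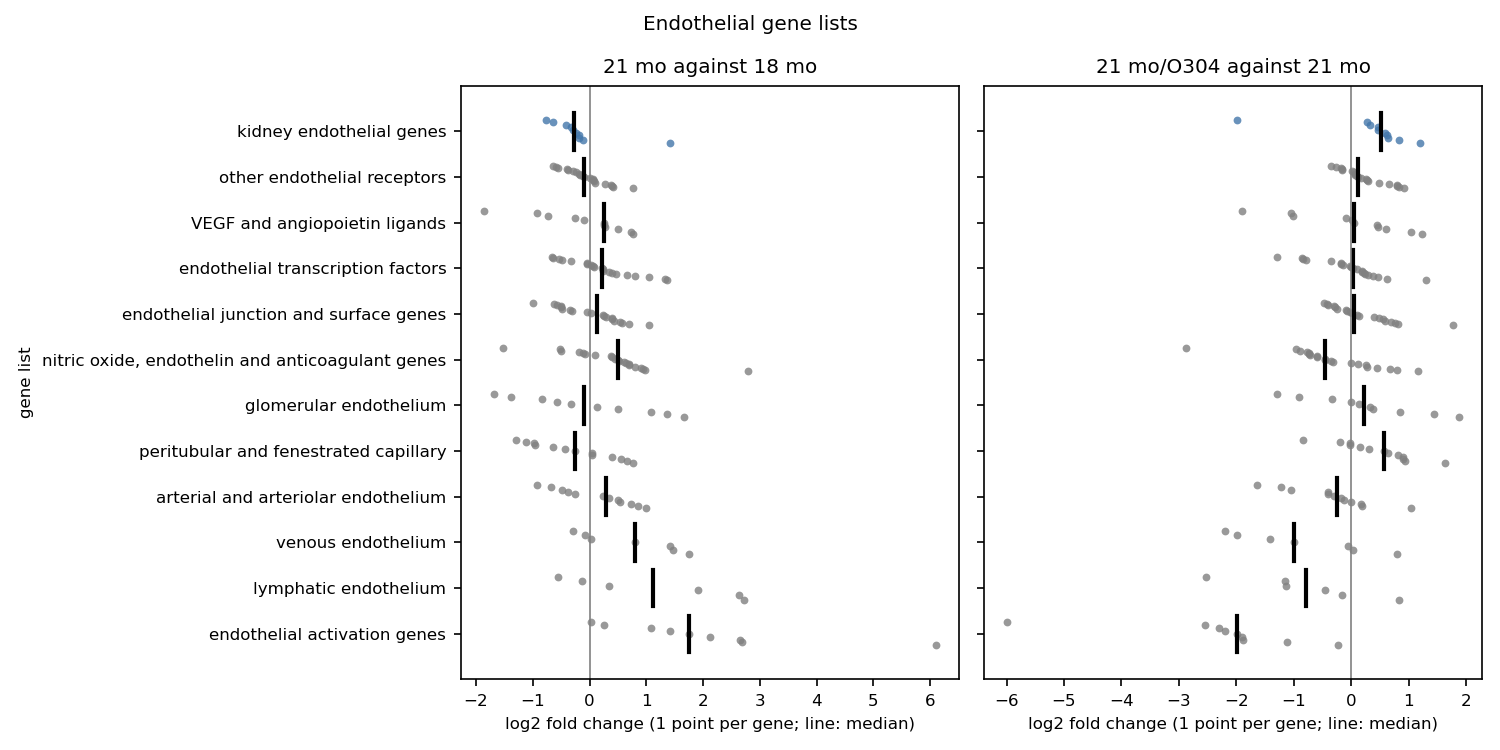
log2 fold changes of the genes of 12 endothelial lists (rows, 1 point per gene, line at the median), with the comparison of 21 mo and 18 mo on the left and that of 21 mo/O304 and 21 mo on the right. The 10 genes described here are in blue, with medians of -0.27 and 0.52, and the activation genes at the bottom lie furthest from 0, with medians of 1.76 and -1.99.

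Of 21 genes of the nitric oxide, endothelin and anticoagulant list, which holds Nos3, 15 were higher in 21 mo against 18 mo, with a median of 0.50, and 14 were lower in 21 mo/O304 against 21 mo, with a median of -0.45. None passed the adjusted p in edgeR. Edn1, the vasoconstrictor endothelin 1, which collecting duct cells also make, had 2.29, 0.92 and 2.04 CPM in the 18 mo libraries, 1.61, 13.9 and 20.8 CPM in the 21 mo libraries and 1.92, 1.49 and 1.53 CPM in the 21 mo/O304 libraries. It was high in 21 mo replicates 2 and 3 and within the range of the 18 mo libraries in replicate 1. Thbd, the anticoagulant receptor thrombomodulin, had log2 fold changes of 0.39 ± 0.24 and -0.00 ± 0.24. The mural cell markers Pdgfrb, of pericytes, and Myh11, of smooth muscle, had 0.30 ± 0.58 and 0.45 ± 0.30 in the former comparison and -0.85 ± 0.58 and 0.07 ± 0.30 in the latter. Of 16 pericyte, mesangial and smooth muscle markers, 11 were higher and 5 lower in the former, with a median of 0.35. In the latter 4 were higher and 12 lower, with a median of -0.47. They summed to 196.3, 207.0 and 411.8 CPM in 21 mo replicates 1, 2 and 3.

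Markers of other cells moved with the groups and libraries beside these genes. All 9 leukocyte markers and all 9 macrophage markers were higher in 21 mo against 18 mo, with medians of 1.16 and 1.68, and none was at 0 in any group. The leukocyte markers summed to 182.3 to 241.7 CPM among 18 mo, 318.4 to 713.4 CPM among 21 mo and 246.3 to 365.4 CPM among 21 mo/O304 libraries. The macrophage markers summed to 311.7 to 527.8 CPM among 18 mo, 785.1 to 3797 CPM among 21 mo and 581.4 to 628.3 CPM among 21 mo/O304 libraries. All 10 fibroblast markers were higher in 21 mo against 18 mo, with a median of 1.51, and lower in 21 mo/O304 against 21 mo, with a median of -1.11. None of them was at 0, and they summed to 188.0 to 265.6 CPM among 18 mo, 155.6, 594.0 and 1378 CPM in the 21 mo libraries and 112.9 to 272.0 CPM among 21 mo/O304 libraries. The 7 tested of 8 adipocyte markers were higher in 21 mo/O304 against 21 mo, with a median of 4.39, and Lep had no count in any 21 mo library. Without Pck1, which tubules also express, they summed to 46.2 to 90.5 CPM among 18 mo, 36.2 to 129.0 CPM among 21 mo and 110.9 to 294.5 CPM among 21 mo/O304 libraries. Of the 8 markers, 5, 4 and 0 were at 0 counts in the 18 mo libraries and 2, 2 and 1 in the 21 mo libraries. The sums of 18 mo replicates 1 and 2 therefore rest on few genes. Adipoq had 372, 33 and 237 counts in the 21 mo/O304 libraries, against 1, 0 and 11 in the 21 mo libraries and 0, 0 and 25 in the 18 mo libraries. The library with the highest level of the endothelial genes, 21 mo/O304 replicate 2, had the fewest Adipoq counts of its group. The part of these cells in the levels above was not tested.

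The erythroid markers followed the endothelial genes in some respects. Their mean level on the log2 scale, for 6 tested of 7 genes, was 1.30, -1.74 and 0.44 in the 18 mo libraries, 2.56, -2.27 and -3.94 in the 21 mo libraries and -1.47, 0.34 and 0.77 in the 21 mo/O304 libraries. They summed to 59.5 to 287.3 CPM among 18 mo, 11.7 to 916.9 CPM among 21 mo and 68.6 to 252.1 CPM among 21 mo/O304 libraries. In each group the library lowest in the endothelial genes was also the lowest in erythroid markers. The highest library was the same only in the 21 mo group, replicate 1. In the 18 mo group it was replicate 3 for the endothelial genes and replicate 1 for the erythroid markers. In the 21 mo/O304 group these were replicates 2 and 3. How much blood the vessels held at harvest is not given in the sources used here, and its part in the results was not tested.

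**Figure D5:**
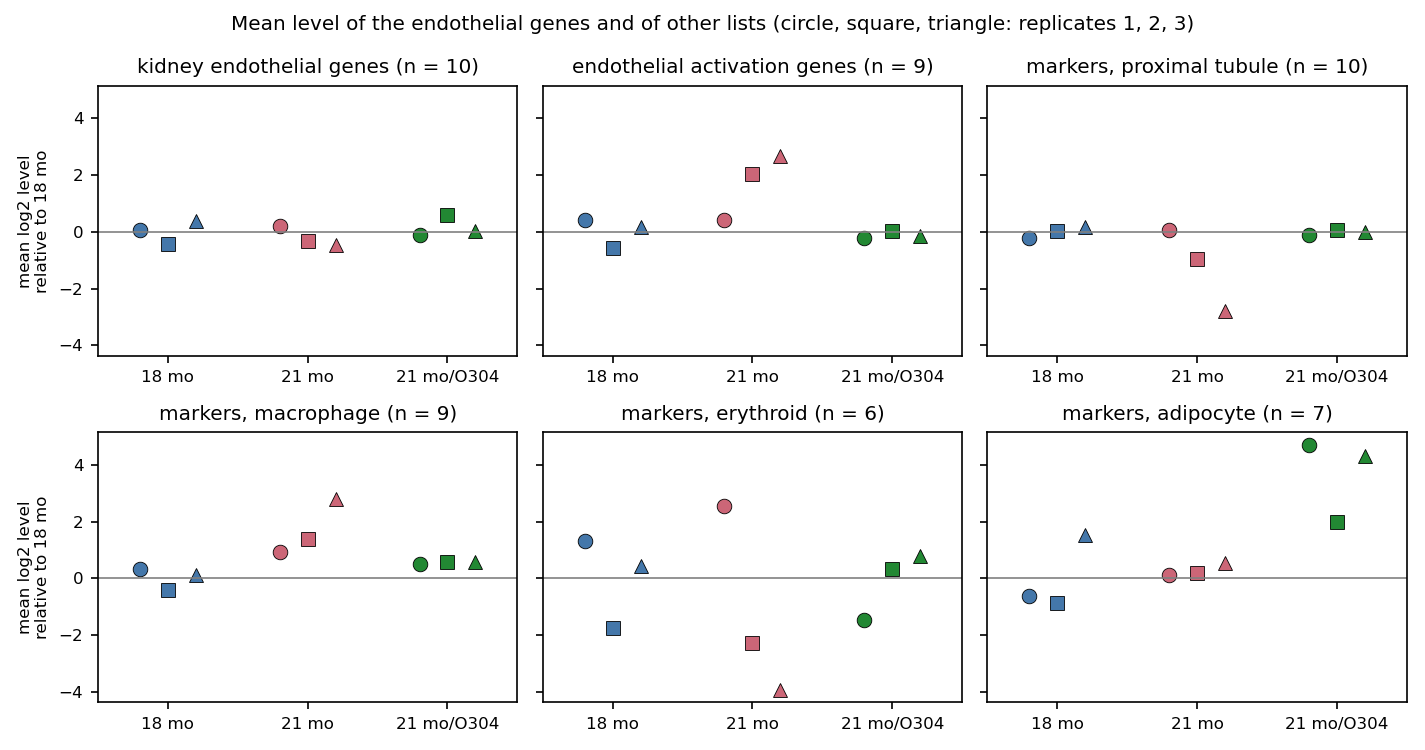
Mean log2 CPM of 6 gene lists (panels, with the number of genes) in each library, relative to the 18 mo mean. The mean of the 10 endothelial genes lies between -0.45 and 0.59, with Vwf opposite to the other 9 genes (mean -0.73) in 21 mo replicate 3. The proximal tubule and activation lists depart mainly in 21 mo replicates 2 and 3, and the adipocyte list in the 21 mo/O304 libraries. The macrophage list lies above all 18 mo libraries in the 21 mo libraries (0.92 to 2.81) and in the 21 mo/O304 libraries (0.50 to 0.58).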

How the data were processed

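Kidney RNA of 9 mice was sequenced on libraries made with an unstranded kit, and each mouse is 1 library. Per the paper's methods and the submitters' processing notes, the authors aligned reads with HISAT2 2.0.5 to mm10 (GRCm38), counted them with featureCounts 1.5.0-p3 and tested them with DESeq2 1.20.0. The table the authors deposited holds raw counts per gene for each library, and beside them FPKM, which the authors derived from those counts and the gene length. How strand and multiply mapped reads were treated is not given in the sources used here. The 10 fields of the authors' own fold changes, p-values and group means were not used.

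Genes passing filterByExpr (minimum count 10, minimum total 15) were normalized by TMM and tested with edgeR 4.0.16 (R 4.3.3) by glmQLFit and glmQLFTest in 1 fit of all 9 libraries with 3 group means and 6 residual degrees of freedom, with Benjamini-Hochberg adjustment over all genes tested. log2 CPM used a prior count of 2. No 2 libraries held identical values. The 10 genes and the lists were chosen with earlier results of these data known. Other genes named are a fixed set of ligands, receptors and vascular genes, the 5 protein-coding genes of at least 1 CPM most like the mean of the 10, and genes picked after their values were seen, which are Lcn2, Fabp1, Lpl, Lyve1, Adipoq, Pck1, Lep and Gp1bb.

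The alternatives were DESeq2 1.42.0, limma voom with quality weights and limma-trend on log2(FPKM + 1) with a mean FPKM of at least 0.5 (limma 3.58.1), scaling by the upper quartile, no filter beyond 1 count, a filter of 10 counts in all libraries, fits of only the 6 libraries of a comparison, a block for the replicate number, and each library left out in turn. The fits were tested on simulated data. A search for transcription factor letters in promoters was not run, and no sequences were used here.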

Additional observations from a re-analysis of the deposited data

How the results depend on the processing

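The count of endothelial genes past the threshold was 0 in all 3 comparisons. It was also 0 under scaling by the upper quartile, both filters on low counts, fits of only the 6 libraries compared, limma-trend on FPKM (without Vwf, whose mean FPKM was too low) and the replicate block. In 21 mo against 18 mo it was 1 at an unadjusted p, 1 with DESeq2, 5 with limma voom and 0 to 2 with 1 library left out. In 21 mo/O304 against 21 mo it was 3, 1, 8 and 0 to 3. With 1 library left out, the medians of -0.27, 0.52 and 0.27 ranged over -0.50 to -0.05, 0.29 to 0.72 and 0.02 to 0.47. The SD between mice of 0.37 was larger in size than the medians of -0.27 and 0.27. Leaving out 1 of 3 mice can hardly move a median by that SD, so it does not test how stable the medians are. With the block the medians were -0.30, 0.53 and 0.27. No label says that the replicate numbers mark a shared litter, batch or day. Deviations from the group means were correlated between same-numbered libraries, with r from -0.13 to 0.17. By this measure 4 of 9 libraries correlated best with their own number. Such values cannot decide whether the numbers pair the samples. The cause of the changes between fits was not tested.

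With 1 library left out, the Ehd3 to Plvap difference ranged from -0.15 to 0.80, from -0.81 to 0.14 and, for 21 mo/O304 against 18 mo, from -0.14 to 0.13. Kdr, Flt1, Tek, Ehd3, Plvap and Vwf held their sign in every alternative in 21 mo against 18 mo, and all 10 genes did in 21 mo/O304 against 21 mo. Leaving out 18 mo replicate 3 alone turned Pecam1, Cdh5, Emcn and Nos3. Leaving out 1 library turned the sign of these log2 fold changes in 21 mo against 18 mo: Pecam1 (-0.42 to 0.034), Cdh5 (-0.47 to 0.020), Emcn (-0.24 to 0.020), Nos3 (-0.35 to 0.12), Nrp1 (-0.067 to 0.29), Angpt1 (-0.27 to 0.24), Angpt2 (-0.21 to 1.99), Klf2 (-0.28 to 0.26) and Pdgfrb (-0.73 to 0.76). In 21 mo/O304 against 21 mo it turned Vegfc (-0.20 to 0.16), Nrp1 (-0.17 to 0.16), Sox17 (-0.076 to 0.43), Klf2 (-0.076 to 0.56), Thbd (-0.15 to 0.15), Pdgfrb (-1.30 to 0.17) and Myh11 (-0.13 to 0.27). In 21 mo/O304 against 18 mo it turned Cdh5 (-0.0095 to 0.47), Ehd3 (-0.21 to 0.17), Plvap (-0.21 to 0.12) and Nos3 (-0.068 to 0.38). limma voom turned Klf2 (-0.18) and Pdgfrb (-0.26) in the first comparison, Nrp1 (-0.083) and Thbd (0.058) in the second and Nos3 (-0.0094) in the third. Pdgfrb was -0.0066 with the block and -0.040 with limma-trend, and Thbd 0.0023 with DESeq2. Upper-quartile scaling turned Vegfc (-0.0078), Nrp1 (-0.017), Ehd3 (0.011) and Plvap (0.012), and Plvap was 0.0016 with every gene of at least 1 count. The fixed set of ligands, receptors and vascular genes was also refitted for the comparisons with the 21 mo group. Under the other tests, scalings and filters, 27 of its results passed the adjusted p, 220 did not change and 9 turned sign. With 1 library left out, 9 passed, 256 did not change and 23 turned. The share of all genes that passed also rose in some of these fits, as given above.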
